A study of Drosophila melanogaster with 13 samples.

Results

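The 8 genes brwl, Mtpalpha, Fmo-1, Obp47b, pb, CG1598, Ptpmeg and Hsp68 lie at some of the strongest wild-type Pita sites that were not called when the ZAD of Pita was removed and were called when a human ZAD-like domain stood in its place. They are 8 of 17684 annotated genes. Peaks were counted as theirs when they overlapped the gene or the 2 kb on either side of it (build dm6). Of 6204 peaks in 6 lists, 35 met this rule. The genes were chosen from these same lists, by the wild-type FLAG fold and by which lines held a peak. Their presence or absence in a line is therefore a description here and was not tested.

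Pita is a zinc-finger protein that binds chromatin insulators and domain boundaries. Its ZAD (zinc finger-associated domain) is a protein-protein contact domain at the N-terminus, through which such proteins pair, while the zinc fingers contact DNA. The question the lines address is how occupancy of single sites depends on that domain, and whether the related domain of the human protein ZFP276 can stand in for it.

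Whole adult Drosophila melanogaster aged 2 to 3 days were assayed by chromatin immunoprecipitation and sequencing (ChIP-seq). The Pitawt line (genotype pita1attP Pitawt) had the wild-type protein, the PitaΔZ line (y1w1118; pita1attP PitadeltaZ) lacked the ZAD, and the PitaZ276 line (pita1attP PitaZ276) had the ZFP276 domain. All 3 lines shared pita1attP, and the labels give y1w1118 for PitaΔZ alone. Each line was assayed with a FLAG and a Pita antibody in 2 libraries per combination, and 1 preimmune library from Pitawt flies served as background, 13 libraries in all. Whole bodies mix all cell types, so fewer cells with a bound site and less binding per cell cannot be told apart. The authors deposited 1 peak list per line and antibody, of 1792 and 1195 peaks for Pitawt FLAG and Pita, 685 and 797 for PitaΔZ, and 1243 and 492 for PitaZ276. Each list joins a pair of peak lists, so no value has a spread between replicates, and the depth of the libraries is unknown. Folds (the authors' enrichment over background) differ in scale between the lists. With FLAG their median over all peaks was 10.5 in Pitawt, 29.5 in PitaΔZ and 9.90 in PitaZ276. With the Pita antibody it was 12.4, 14.5 and 5.59. A fold that differs between lists is therefore not read as more or less binding.

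Pitawt FLAG had 9 peaks at the 8 genes. The strongest peak at each gene gave 7 main sites, because brwl and Mtpalpha share one, and pb and Ptpmeg each had a weaker peak besides. All 9 were also called in Pitawt Pita, where 63.8% of all Pitawt FLAG peaks were. PitaΔZ FLAG held 1 of the 9, against 37.3% of all Pitawt FLAG peaks, and PitaΔZ Pita held the same 1, against 41.1%. PitaZ276 FLAG held all 9, against 62.1%, and PitaZ276 Pita held 5, against 26.5%. These shares fixed the choice of genes, and nothing is read from the contrast between them. Over all 1143 Pitawt sites called with both antibodies, 212 (18.5%) were called in PitaZ276 with either antibody and in PitaΔZ with neither, and 8 of the 9 peaks were among them.

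By the choice of the genes, the main sites were exceptions among wild-type peaks of at least their strength. The shares that follow describe the background and test nothing. Their Pitawt FLAG folds (the authors' enrichment over background) ran from 34.3 to 51.2. Of the 250 Pitawt FLAG peaks with a fold at least that of the lowest, 93.2% were called in PitaΔZ FLAG and 98.8% in PitaZ276 FLAG. With either antibody, 239 of the 250 (95.6%) were called in PitaΔZ, which left 11 that were not. These 250 include peaks stronger than any main site. Within the fold range of the main sites, of the peaks also called in PitaZ276 FLAG, 116 were called in PitaΔZ FLAG and 13 were not. By fold, the 7 main sites held places 1 to 5, 7 and 8 in the class of 212. Place 6 was a site between genes, 2111 bp from the end of CG17350, with a fold of 36.1. The lowest main site, at Hsp68, had 34.3, and the next sites below it were inside CG9380 (33.6) and inside csw, a tyrosine phosphatase gene (33.1).

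**Figure D1:**
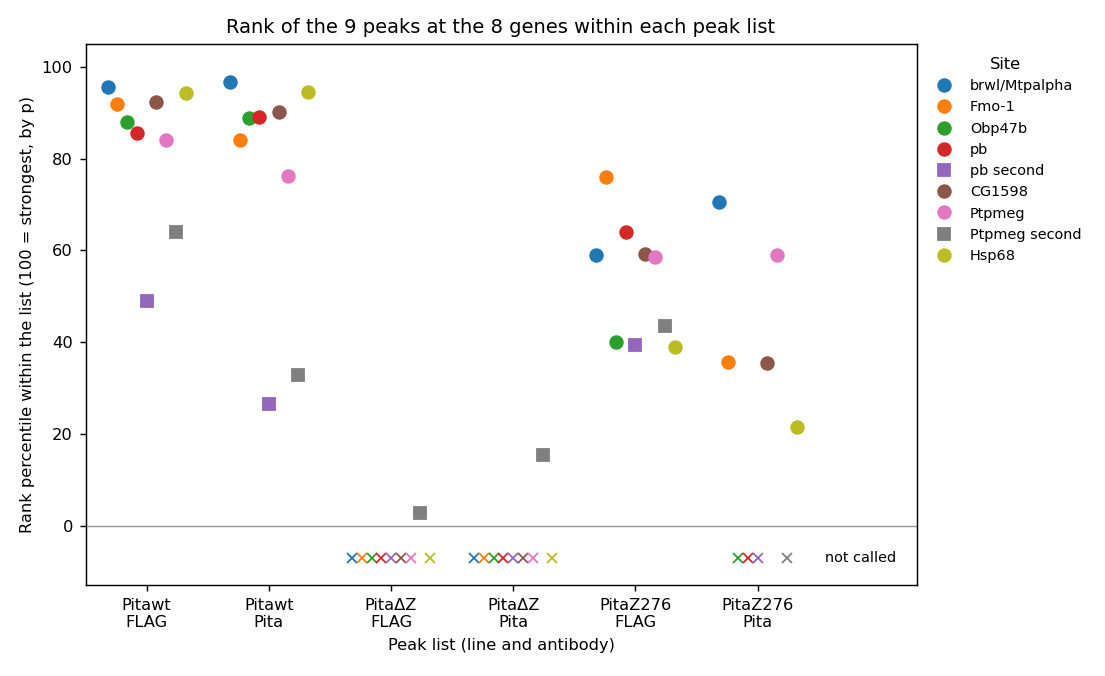
Rank percentile (vertical axis, 100 for the strongest peak by p) of the 9 Pitawt FLAG peaks at the 8 genes in each of the 6 peak lists (horizontal axis); circles are the strongest peak of a gene, squares the weaker peaks at pb and Ptpmeg, and crosses mark lists without a peak. The main sites are absent from both PitaΔZ lists, and all 9 peaks are present in PitaZ276 FLAG.

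The site shared by brwl and Mtpalpha had the highest wild-type fold. Mtpalpha encodes the alpha subunit of the mitochondrial trifunctional protein, which breaks down long-chain fatty acids, and the genes overlap by 10 bp. The Pitawt FLAG peak (2L, 9570639 to 9572237) had its summit inside brwl, 1966 bp from Mtpalpha. Its fold was 51.2 in Pitawt FLAG (rank 79 of 1792 by p) and 71.0 in Pitawt Pita (rank 39 of 1195). In PitaZ276 FLAG the fold was 10.9 (rank 510 of 1243) and in PitaZ276 Pita 7.20 (rank 146 of 492, but 414 by the p of the second joined list). It thus stood near the top of both wild-type lists and near the middle of PitaZ276 FLAG. The nearest PitaΔZ FLAG summit was 30820 bp away.

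Fmo-1 encodes a flavin-containing monooxygenase, an enzyme class that oxidises nitrogen and sulphur compounds. Its peak (2R, 23962805 to 23964817) had the summit 383 bp inside the gene. Alas, the gene of the haem synthesis enzyme 5-aminolevulinate synthase, also lay within 2 kb of that summit. The fold was 39.3 in Pitawt FLAG (rank 146) and 29.2 in Pitawt Pita (rank 192). PitaZ276 gave 17.2 with FLAG (rank 300) and 4.36 with the Pita antibody (rank 317 of 492). Among the main sites this was the highest rank in PitaZ276 FLAG by the first joined p, but by the second pb (128) and Ptpmeg (318) stood above Fmo-1 (506). The nearest PitaΔZ FLAG summit lay 56012 bp away.

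Obp47b belongs to the odorant-binding protein genes, whose products carry odorants in the fluid of sensory hairs. The peak (2R, 11303427 to 11305486) lay outside Obp47b, with a summit 866 bp from its end and inside CG7741. Fpps, which encodes farnesyl pyrophosphate synthase of the isoprenoid pathway, lay within 2 kb too. The Pitawt folds were 39.1 with FLAG (rank 215) and 47.5 with the Pita antibody (rank 133). In PitaZ276 the FLAG fold was 8.22 (rank 746), and the Pita list had no peak. No main site was farther from a PitaΔZ FLAG summit, at 107073 bp.

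The Hox gene pb (proboscipedia) specifies the adult mouthparts. Its main peak (3R, 6708131 to 6710225) had a summit inside the gene, 1259 bp from one end. Pitawt gave folds of 38.8 with FLAG (rank 260) and 51.8 with the Pita antibody (rank 131), and PitaZ276 gave 16.4 with FLAG (rank 449). The weaker peak (3R, 6705514 to 6706895) lay outside that end, with its summit 1306 bp away, close to the cuticle protein gene Ccp84Aa. Pitawt folds were 12.0 with FLAG (rank 916) and 9.12 with the Pita antibody (rank 880) there, and the PitaZ276 FLAG fold was 8.10 (rank 754). Both peaks were thus called with FLAG in PitaZ276, and neither in a PitaΔZ list or in PitaZ276 Pita. Of the 449 PitaZ276 FLAG peaks ranked at or above the main pb peak, 83.7% met a PitaZ276 Pita peak, so pb was among the exceptions. For Obp47b the same share was 62.2% of 746.

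CG1598 encodes a homologue of the ATPase ASNA1, which in other eukaryotes delivers tail-anchored proteins to the endoplasmic reticulum. Its Pitawt FLAG peak (2R, 7536720 to 7540225) covered 3506 bp, and the summit lay inside the gene, 393 bp from an end. The Pitawt fold was 36.9 with either antibody, at rank 139 with FLAG and 119 with the Pita antibody. PitaZ276 gave 10.8 with FLAG (rank 508) and 3.93 with the Pita antibody (rank 319 of 492). Pitawt Pita split the same stretch into a pair of peaks, the other with a summit at 7537439, a fold of 15.6 and rank 273. The FLAG peak covered 3369 bp in PitaZ276, and PitaZ276 Pita had a peak at the stronger position only.

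Ptpmeg encodes a tyrosine phosphatase with FERM and PDZ domains that acts in axon patterning of the fly brain. Its main peak (3L, 330719 to 334460) had the summit 50 bp from the end of mthl9, a gene for a methuselah-like receptor. Pitawt folds there were 34.5 with FLAG (rank 287) and 26.0 with the Pita antibody (rank 285), and PitaZ276 folds were 13.2 (rank 515) and 6.79 (rank 203 of 492). Summits at this peak fell on 2 positions. In the first joined list they ran from 332325 to 332359 in the 4 lists that held the peak, and in the second from 332682 to 332690 in all of these but Pitawt FLAG, where the summit was at 332343.

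A weaker Ptpmeg peak was the 1 member called in PitaΔZ. Its summit (peak at 3L, 342225 to 343205) lay inside Ptpmeg, 10675 bp from the main summit and 119 bp from the end of mthl10. Folds were 17.4 in Pitawt FLAG (rank 647) and 10.0 in Pitawt Pita (rank 804). They were 6.77 in PitaΔZ FLAG (rank 667 of 685), 4.68 in PitaΔZ Pita (rank 676 of 797) and 9.19 in PitaZ276 FLAG (rank 703). Within Ptpmeg the stronger wild-type peak was therefore missing from PitaΔZ while the weaker one was listed close to the bottom of the FLAG list. Of 531 genes with at least 2 Pitawt FLAG peaks, 19 (3.58%) had this order with FLAG, and 185 (34.8%) had the opposite one, with the strongest called and a weaker one not. All peaks called in PitaZ276 FLAG and none in PitaΔZ FLAG, as at pb, was found for 48 of the 531 (9.04%). Neighbouring genes can share peaks, so these are not counts of independent sites. Ptpmeg and pb were chosen for a strong Pitawt peak missing from PitaΔZ, so the opposite order could not occur at them. The shares are background, and nothing about Ptpmeg or pb is read from them.

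Hsp68 encodes a heat-inducible chaperone of the Hsp70 family. The peak (3R, 24055218 to 24057176) was centred on the gene body, 1000 bp from one end and 1230 bp from the other. It had folds of 34.3 in Pitawt FLAG (rank 102) and 41.5 in Pitawt Pita (rank 66). PitaZ276 gave 5.19 with FLAG (rank 761) and 3.19 with the Pita antibody (rank 387 of 492). By the first joined p, Hsp68 had the lowest rank of the main sites in both PitaZ276 lists. By the second, Obp47b (874) was below Hsp68 (806) with FLAG and CG1598 (483) below Hsp68 (473) with the Pita antibody. In Pitawt FLAG it ranked 102 by p but 250 by fold.

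No PitaΔZ peak lay close to a main site. From the main sites to the nearest summit of PitaΔZ FLAG the distance was 10675 to 107073 bp, the nearest being the weaker Ptpmeg peak. The PitaΔZ FLAG list reached down to a fold of 2.58 and a −log10 p of 14.9. The lists did not share a cut, as the smallest −log10 IDR for FLAG was 2.01 with PitaΔZ and 1.31 with PitaZ276, and for the Pita antibody 2.02 and 1.30. All 7 main sites in PitaZ276 FLAG and 1 of the 5 in PitaZ276 Pita had a −log10 IDR of at least 2. A peak absent from a list was below the authors' threshold, which does not show that no protein was bound.

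Where a site was called in PitaZ276, its summit in the first joined list lay within 127 bp of the Pitawt FLAG one. In the second joined list the Ptpmeg summits were at 332682 (PitaZ276 FLAG) and 332690 (PitaZ276 Pita), against 332359 in the first of Pitawt FLAG. Summit position was not used to choose the genes. A call did require overlap with the Pitawt FLAG peak, which limits how far apart summits can lie. The distances below are for the first joined list. In Pitawt Pita the summits of the 7 main sites were 11 to 34 bp from the Pitawt FLAG summit. In PitaZ276 FLAG the distance was 1 to 127 bp, with a median of 30 bp and the largest at Obp47b, and 6 of 7 lay within 100 bp. All 5 in PitaZ276 Pita lay within 88 bp. Over all Pitawt FLAG peaks called in the other list, summits within 100 bp were found for 96.7% with Pitawt Pita, for 87.2% with PitaZ276 FLAG and for 82.9% with PitaZ276 Pita, so the main sites were close to the rest. With PitaΔZ FLAG the share was 93.4%, and there the weaker Ptpmeg peak had its summit on the same base as in Pitawt FLAG.

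**Figure D2:**
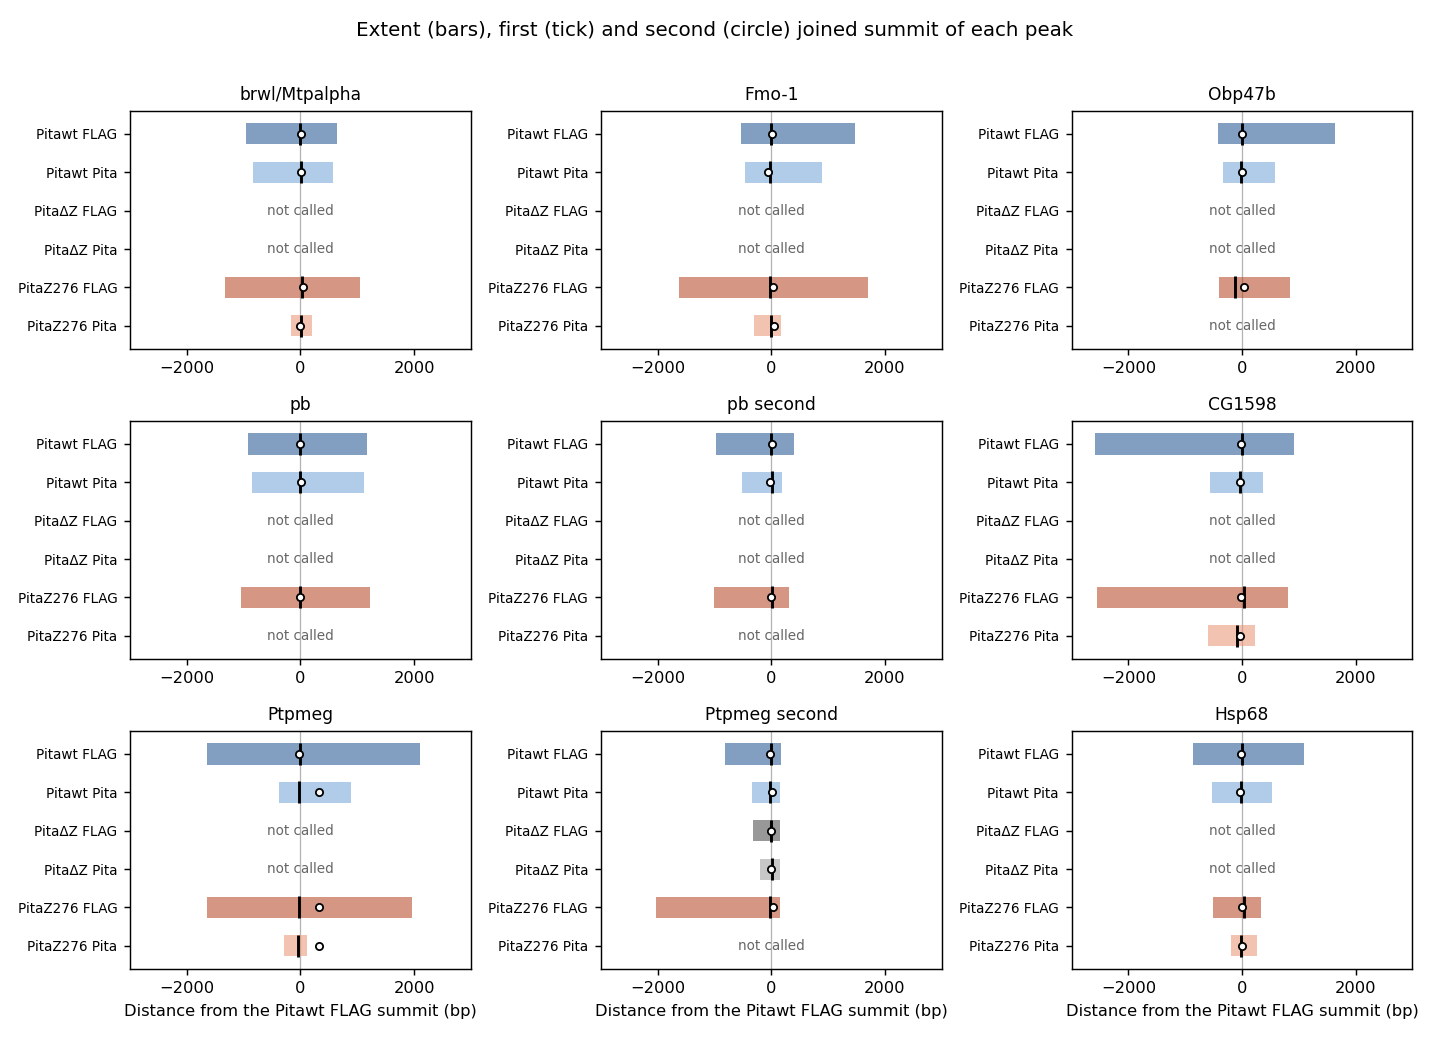
Extent of each peak in the first joined list (bars), its summit there (tick) and its summit in the second joined list (circle), as distance in bp from the Pitawt FLAG summit (horizontal axis), for each of the 9 peaks (panels) and the 6 lists (rows). Outside Ptpmeg, summits lie within 127 bp of the Pitawt FLAG summit; at Ptpmeg 3 of the lists have second summits 343 to 365 bp from the first.

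Main sites were wider with FLAG than with the Pita antibody in both Pitawt and PitaZ276. With the Pita antibody they were also narrower in PitaZ276 than in Pitawt. Main sites were 1599 to 3742 bp wide in Pitawt FLAG (median 2060 bp) and 846 to 3601 bp in PitaZ276 FLAG (median 2377 bp). With the Pita antibody they were 916 to 1979 bp at the 7 sites in Pitawt (median 1261 bp). At the 5 sites called in PitaZ276 they were 364 to 836 bp (median 464 bp). Over all peaks the median width with FLAG was 1014.5 bp for Pitawt and 1258 bp for PitaZ276, and with the Pita antibody 790 bp and 568.5 bp. Width depends on depth and threshold as well as on the site, and their part here was not tested.

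Lists of unequal length do not give comparable ranks, so ranks were also taken over the 1112 Pitawt FLAG peaks that PitaZ276 FLAG held. All 7 main sites stood lower in PitaZ276 than in the wild type. The median rank was 145 in Pitawt FLAG and 521 in PitaZ276 FLAG. Hsp68 went from 102 to 766, Obp47b from 213 to 751 and the brwl and Mtpalpha site from 79 to 521. CG1598 moved from 138 to 519, Ptpmeg from 283 to 526, pb from 258 to 455 and Fmo-1 from 145 to 307. These sites were thus held with the human domain, but at lower places in the order. By fold all 7 were lower as well. By the p of the second joined list 6 of 7 were lower, and pb went the other way, from 218 to 130.

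Peaks of the same wild-type strength that PitaΔZ FLAG held had like median ranks in Pitawt and PitaZ276. Among the shared peaks in the fold range of the main sites, 116 were called in PitaΔZ FLAG, with a median rank of 182.5 in Pitawt FLAG and 194 in PitaZ276 FLAG, and 62 of them stood lower in PitaZ276. In the same range 6 further peaks, not called in PitaΔZ FLAG and at none of the 8 genes, went from a median of 236 to 487, and all 6 stood lower. By the second joined p their median went from 231.5 to 414, and 5 of the 6 stood lower. The low PitaZ276 rank was therefore also seen at other strong sites missing from PitaΔZ FLAG. Main sites were chosen for a high wild-type fold and for absence from PitaΔZ, and this difference was not tested. Of the weaker peaks, the one at pb stood higher in PitaZ276 FLAG, going from 814 to 758. The weaker Ptpmeg peak stood lower, going from 612 to 713. With the Pita antibody, over 452 shared peaks, Hsp68 went from 62 to 368, CG1598 from 111 to 308, Fmo-1 from 172 to 306 and the brwl and Mtpalpha site from 38 to 146, or from 106 to 394 by the second joined p. Ptpmeg stood at 236 in Pitawt Pita and 200 in PitaZ276 Pita, and at 196 and 194 by the second joined p.

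**Figure D3:**
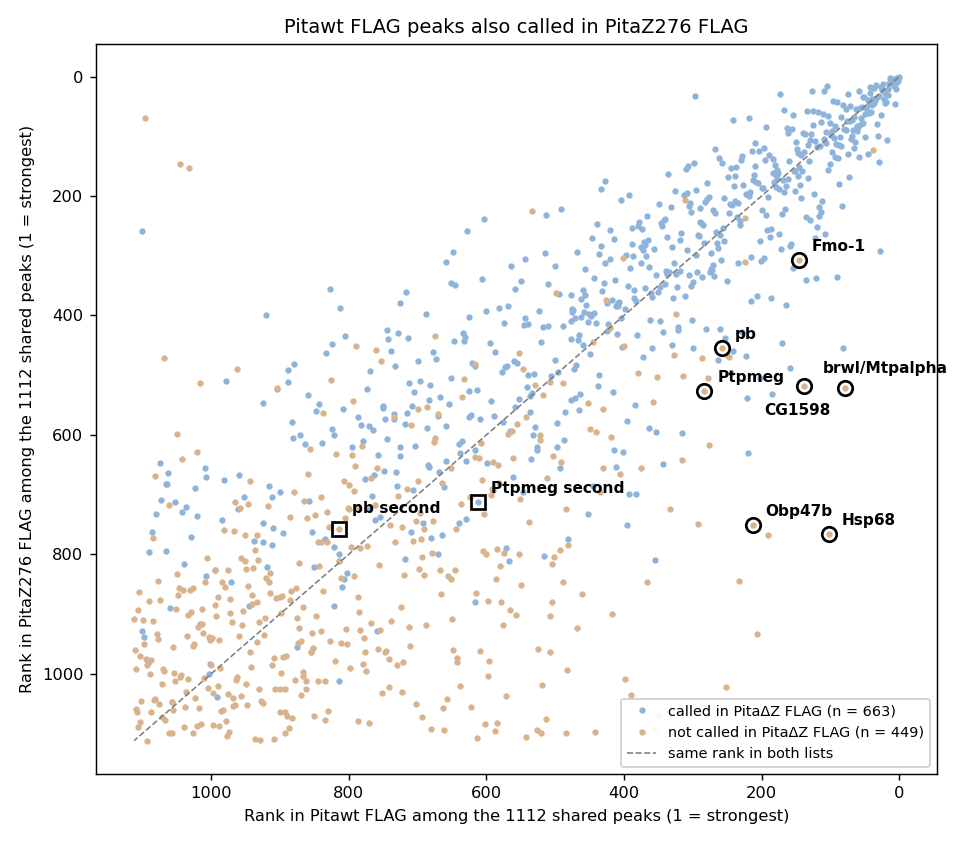
Rank in Pitawt FLAG (horizontal axis) and in PitaZ276 FLAG (vertical axis) of the 1112 Pitawt FLAG peaks called in both lists, with rank 1, the strongest, at the top right; blue peaks were called in PitaΔZ FLAG and brown ones were not, open circles are the main sites and squares the weaker peaks at pb and Ptpmeg. The 7 main sites lie below the dashed line of equal rank, at PitaZ276 ranks of 307 to 766.

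The joined lists differed in strength in the Pitawt Pita and PitaZ276 lists as a whole, and these sites shared in that. In the authors' deposited table the median −log10 p of all peaks was 81.3 in the first and 79.6 in the second joined list of Pitawt FLAG, 66.6 and 179 for PitaZ276 FLAG, and 16.8 and 537 for PitaZ276 Pita. In the authors' deposited table for Pitawt FLAG, the −log10 p of the main sites ran from 391 to 945 in the first joined list and from 387 to 996 in the second. In the authors' deposited table for Pitawt Pita it ran from 217 to 1101 and from 96.4 to 358, and the first was higher at all 7. Over all Pitawt Pita peaks the medians in the authors' deposited table were 80.2 and 40.4. For PitaZ276 FLAG the authors' deposited table had 39.2 to 190.0 against 67.0 to 816, with medians of 97.4 and 146. The widest gap there was at pb, with 119 against 816 in the authors' deposited table, while Fmo-1 had 190.0 against 243. The 5 main sites of PitaZ276 Pita had 9.26 to 30.2 against 130.3 to 703 in the authors' deposited table, with medians of 12.4 and 213. The −log10 IDR of these 5 (irreproducible discovery rate, a measure of how well a peak repeats between the joined lists) was 1.34 to 2.14, and only Ptpmeg reached 2. In PitaZ276 FLAG it was 2.64 to 3.13 at the 7 main sites.

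**Figure D4:**
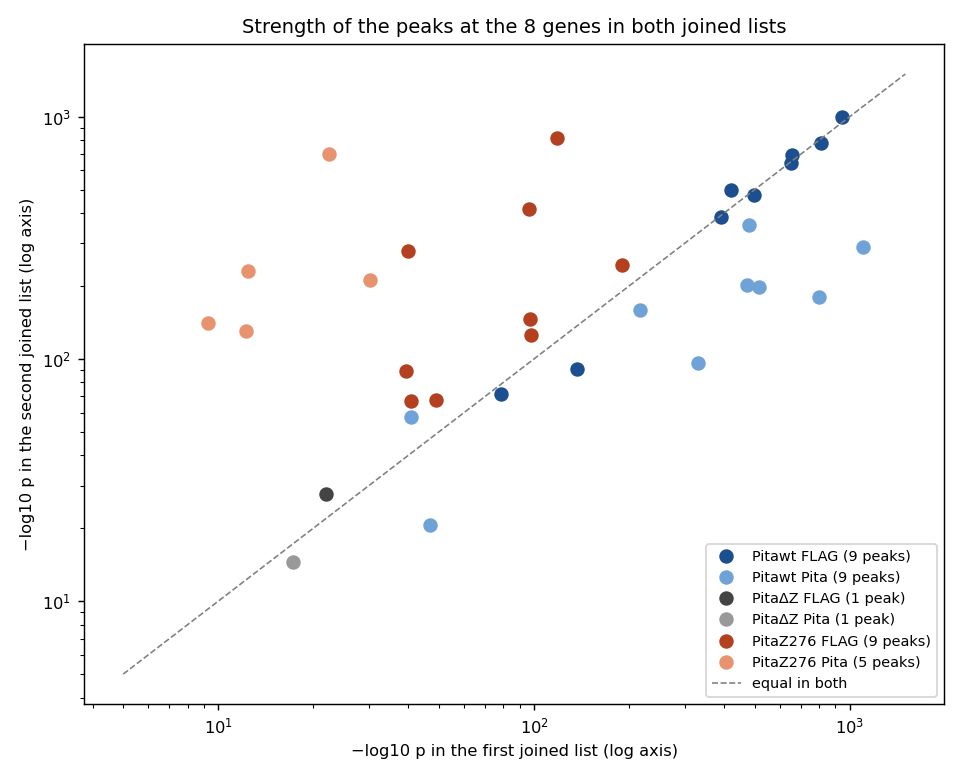
The −log10 p of each peak at the 8 genes in the first (horizontal log axis) and second joined list (vertical log axis), coloured by peak list, with a dashed line where both are equal. Pitawt FLAG peaks lie near the line, Pitawt Pita peaks of the main sites below it, and the PitaZ276 peaks above it.

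The main sites lay inside genes. All 7 summits fell in the body of an annotated gene, 6 of them in one of the 8 genes. Of all Pitawt FLAG summits 64.3% lay inside a gene, and in the fold range of the main sites 40.0% did (52 of 130). The choice of the 8 genes left out the CG17350 site, which lies in no gene, so position was not independent of the choice. At Fmo-1, CG1598 and Ptpmeg, 3 of the 7, the summit was no farther than 500 bp from an end of a gene. No share over all Pitawt FLAG summits stands beside this count, so nothing is read from it. None was on X, which held 18.8% of Pitawt FLAG peaks, and 3 were on 2R, which held 19.2%.

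By rank percentile over the 6 lists, the site most like the mean of the main sites lay inside enc, at 3L, 3838522 to 3840256 (Euclidean distance 12.5). It was called in neither PitaΔZ list and had percentiles of 85.9 in Pitawt FLAG, 63.2 in PitaZ276 FLAG and 22.2 in PitaZ276 Pita. The next were at l(3)76BDm (12.8), CG18528 (20.0), the nuclear receptor gene Hr39 (25.5) and CG17350 (27.6). Both l(3)76BDm and Hr39 were called in PitaΔZ FLAG near the bottom of the list, at percentiles of 2.48 and 2.19. In PitaΔZ Pita, CG18528 (percentile 3.14), l(3)76BDm (4.27) and Hr39 (17.1) were called. The main sites themselves were 5.19 (CG1598) to 40.1 (brwl and Mtpalpha) from their mean, so these neighbours lay within their spread.

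Relatives of the 8 genes varied in which lines held peaks within 2 kb. Over all genes, FLAG gave such a peak at 20.5% for Pitawt, 8.87% for PitaΔZ and 15.0% for PitaZ276, and the Pita antibody at 13.7%, 9.1% and 5.97%. With FLAG, 5 of 8 Hox genes had a Pitawt peak, the same 5 a PitaZ276 peak and 4 a PitaΔZ peak, and pb was the one of the 5 without a PitaΔZ peak. Its neighbour lab, which acts in the head, had FLAG folds of 32.3 for Pitawt (rank 294), 44.5 for PitaΔZ (rank 230) and 25.6 for PitaZ276 (rank 215). These folds come from lists of unlike scale and are not read as a gain or loss between lines. With FLAG, lab thus had a wild-type rank close to the 260 of pb and was called in PitaΔZ. With the Pita antibody its Pitawt fold was 16.3 (rank 473), below the 51.8 (rank 131) of pb.

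Heat shock genes with a Pitawt FLAG peak numbered 5 of 18, with 4 in PitaZ276 FLAG and 0 in either PitaΔZ list. Apart from Hsp68, these peaks were weak in Pitawt FLAG, with folds of 7.73 at the chaperone gene Hsp83, 7.30 at Hsc70-5, 6.46 at Hsp70Ba and 5.35 at Hsp110. The peak at Hsp110 was the one missing from PitaZ276 FLAG. Hsp68 alone was called with the Pita antibody. Expression was not measured, and the part of transcription at these genes was not tested.

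Odorant-binding protein genes had a FLAG peak at 11 of 51 in Pitawt, at 9 in PitaZ276 and at 2 in PitaΔZ. The Pitawt and PitaZ276 counts were near the shares over all genes, 20.5% and 15.0%, and the PitaΔZ share over all genes was 8.87%. With the Pita antibody the counts were 8 in Pitawt, 2 in PitaZ276 and 3 in PitaΔZ. The strongest in Pitawt FLAG were at Obp57d (fold 53.8, rank 148) and Obp28a (53.5, rank 138), and both were called in all 6 lists. Obp47b was the next by fold at 39.1 and was in no PitaΔZ list. In the fatty acid oxidation list 6 of 9 genes had a FLAG peak in Pitawt, 3 in PitaZ276 and 2 in PitaΔZ. Mtpbeta, the gene of the partner subunit of Mtpalpha, had a fold of 5.84 in Pitawt FLAG and no peak in PitaΔZ or PitaZ276. Etf-QO, which passes electrons from fatty acid oxidation to the respiratory chain, had FLAG folds of 34.6 for Pitawt, 39.1 for PitaΔZ and 25.5 for PitaZ276. Tyrosine phosphatase genes had a FLAG peak at 6 of 11 in Pitawt and at 4 in each other line. The strongest was csw, with folds of 66.1 for Pitawt, 101 for PitaΔZ and 43.0 for PitaZ276. The folds of Etf-QO and csw come from lists of unlike scale, so no gain or loss between lines is read from them. Pitawt FLAG had 4 peaks at csw, and its site with a fold of 33.1, which PitaΔZ lacked, was a different one. Of the flavin monooxygenase genes, Fmo-2 had no peak in any list.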

How the data were processed

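Peak lists were used as the authors deposited them. The submitters' processing notes name the build dm6 and the tools MACS2, Bowtie2, cutadapt, Picard, deepTools and bedtools, without versions. Each deposited file had 20 columns without a header, in the layout of a joined pair of peak lists. They were read, from layout and values, as a fold (ratio) over background, −log10 p and q, a summit offset and a score (−log10 IDR), all as deposited by the authors. Position, fold and first p repeat the first joined list; the sources used here do not say from which library.

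Positions were counted from 1. Peaks were matched by overlap of at least 1 bp, taking the strongest, and ranked by the first p. Genes came from the RefSeq table of Release 6, which has no strand or exons, so distances are to gene ends. Related gene lists were fixed by name, and Hsp110 was matched by an older symbol. All members of these lists with a peak could be named, up to 6. Likeness used the mean of 6 rank percentiles, with 0 where not called, and took the 5 nearest sites. The genes and lists were chosen with earlier results of these data known. The planned motif search was not run, as no sequence was used here. With 1 joined list per line and antibody there were no replicates and no tests. The matching code was checked on simulated data against bedtools. Python 3.11.15, numpy 2.4.6, pandas 2.3.3 and matplotlib 3.10.9 were used.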

Additional observations from a re-analysis of the deposited data

How the results depend on the processing

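The counts of peaks at the 8 genes were recomputed under other gene windows, thresholds, list lengths and overlap rules. Of 120 such values, 104 stayed within 1.5 times the reported count, among them the 8 peaks called in PitaZ276 and not in PitaΔZ, which numbered 6 to 9 under the alternatives. That contrast chose the genes, so its stability gives it no support. The q, fold and IDR cuts removed no Pitawt peak at the genes, so many of these values could hardly move. With every list shortened to its strongest 492 peaks, PitaZ276 FLAG had 2 peaks at the genes in place of 9 (at Fmo-1 and pb, likewise 2 of the Pitawt FLAG peaks), and each PitaΔZ list had 0 in place of 1. PitaZ276 Pita had 5 peaks, but 2 with a −log10 q of at least 10, 3 with a fold of at least 4 and 1 with a −log10 IDR of at least 2; the numbers of Pitawt FLAG peaks called in it were the same, 2, 3 and 1. With 50% reciprocal overlap, Pitawt FLAG peaks were called in Pitawt Pita at 5 of 9 and in PitaΔZ FLAG, PitaΔZ Pita and PitaZ276 Pita at 0, where the peaks to be matched differ in width. Of 34 ranks, 6 by fold and 11 by the second joined p stayed within the 95% binomial interval of the rank by the first p. A rank has no binomial sampling error, so this interval served only as a yardstick and measures no uncertainty. These measures were chosen after seeing the data.

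No paired analysis was possible because the sources used here do not tie either of the p columns in a deposited list to a library or replicate number. No replicate was left out, for the same reason. Depth is unknown, so an absent peak does not show absent binding.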

Other observations

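The order seen at Ptpmeg, with the strongest Pitawt FLAG peak not called and a weaker one called in PitaΔZ FLAG, was found at 19 genes in all, among them mthl10, which shares both of the Ptpmeg peaks. The others included RpS3, which encodes a ribosomal protein, and ATPsynCF6, which encodes an ATP synthase coupling factor. Also among them were Sec13, a gene of vesicle coats and nuclear pores, the signalling gene Wnt5 and the rhomboid gene rho-6. In genome order, ATPsynCF6, Sec13 and RpS3 follow one another among the genes with at least 2 Pitawt FLAG peaks. Whether they share peaks was not tested, so they are not to be read as separate sites. Genes that share peaks are not independent, so the 19 genes are not a count of separate sites. The named genes were chosen as examples after their values were seen.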
